A study of Mus musculus with 4 samples.

Results

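The N6-methyladenosine (m6A) landscape of wild-type day 4 retinal organoids was described from the adenosines that both wild-type libraries listed. A site was kept when chromosome, position and strand were the same in both lists and at least 20 reads covered it in each library. These conditions left 26264 shared sites, out of 487128 in either wild-type list and 881997 in any of the 4 lists of the study. They were 13.6% of the sites with 20 reads or more in replicate 1 and 10.5% of those in replicate 2. The sites were chosen by presence in both lists, coverage and, through the limits of the lists, level. Their levels are therefore described here and not tested against other sites. The only test compared the 2 libraries at each site. Another 166235 sites of replicate 1 and 221591 of replicate 2, with the same minimum coverage, were absent from the other wild-type list.

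The study compared mouse retinal organoids of the Rx:GFP line, wild type, with organoids of an Rx:GFP Mettl3 knockout line that carries a doxycycline-inducible HA-tagged METTL3. All were differentiated for 4 days in a serum-replacement medium with 0.1 µM of an agent labelled AGN, and the labels give no further treatment. Rx:GFP marks Rax, a transcription factor of the eye field, with a fluorescent reporter, and retinal organoids are aggregates of stem cells grown towards retina. The knockout libraries served only for the total above. Nothing in the labels says whether the 2 wild-type libraries came from separate cultures, so differences between them may be technical.

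m6A is the most common internal modification of messenger RNA. METTL3 with METTL14 writes it, mostly where the adenosine is centred in the sequence DRACH (A, G or U, then A or G, then the adenosine, then C, then A, C or U). YTH proteins bind it, and FTO and ALKBH5 can remove it. The mark is known for its high density near stop codons and in long internal exons, and for favouring decay of the transcripts that carry it. GLORI measures it at single bases: glyoxal and nitrite deaminate unmodified adenosine, which is then read as G, and m6A stays A. The share of reads with A is called the level here, and it is 1 where no read was converted.

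Sequence could be read at the shared sites that fell in a microRNA hairpin, because the listed microRNA features had the same length as the RefSeq hairpins (GRCm38.p6) in 584 of 584 matched cases. The shared sites placed in no coding gene but in a hairpin are shown whole because they let the base and its surroundings be seen. Capitals mark the site and up to 2 bases on each side, and every sequence runs 5′ to 3′. Mir295 belongs to a microRNA cluster of mouse pluripotent stem cells.
Mir295: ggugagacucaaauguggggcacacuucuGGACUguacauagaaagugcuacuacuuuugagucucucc
Mir703: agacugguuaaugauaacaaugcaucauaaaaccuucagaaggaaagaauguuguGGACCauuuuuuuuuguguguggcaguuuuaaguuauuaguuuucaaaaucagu
The Mir295 site is base 32 of 69, counted from 1 at the hairpin's 5′ end, and its level was 0.236 in replicate 1 (72 reads) and 0.556 in replicate 2 (36 reads). The Mir703 site is base 58 of 109, with levels of 0.122 (1808 reads) and 0.124 (2252 reads). Both lie outside the mature microRNA. Per the labels' protocols, short RNA was removed and poly(A) RNA selected, so mature microRNA was not the material measured.

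Other shared sites lay in hairpins within coding genes. Some are shown as windows around the site, to compare adenosines in DRACH with adenosines outside it.
Mir678 in Prmt2: gucucggugcaaGGACUggagguggcagu
Mir546 in Ctdsp2: cuucccaaaacuAAACAggaucuaucaug
Mir704 in Pdia4: ccuagggauuguUGACUac
Mir704 in Pdia4, second site: cucugcuccuagGGAUUguugacuac
Mir8094 in Ddx39b: ugaaacugaaggACAACgagaagaaccgg
The GGACU site of Mir678 had levels of 0.519 and 0.661 in replicates 1 and 2. The AAACA site of Mir546 had 0.261 and 0.297, and the UGACU site of Mir704 had 0.124 and 0.116. Outside DRACH, the GGAUU site of Mir704 had 0.476 and 0.219, and the ACAAC site of Mir8094 had 0.146 and 0.123. The remaining sites, in Mir5114 within Scd2 (0.746 and 0.899) and Mir7654 within Arglu1 (0.107 and 0.170), were at the first base of the hairpin and outside DRACH, respectively. Only the transcribed strand was read. Of the 9 shared sites in hairpins, 9 were an A in the RefSeq sequence, and 5 of the 8 with 2 bases on each side were in DRACH. Among sites of a single list, 4 of 21 in replicate 1 and 3 of 20 in replicate 2 were in DRACH. Of all 9354 adenosines of these hairpins 8.33% were. The counts are small and are given as a description.

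At most shared sites a minority of reads stayed unconverted. An unmodified adenosine that escaped conversion counts the same as m6A in the level, and the part of such reads was not tested. The median level was 0.260 in replicate 1 and 0.250 in replicate 2, or 0.255 ± 0.00673 (SD, n = 2), and the middle 50% of sites ranged from 0.170 to 0.467 and from 0.160 to 0.456. Levels of 0.5 or more were reached by 22.9% of sites in replicate 1 and 22.2% in replicate 2. Mean levels fell off from 8734 sites between 0.1 and 0.2 to 843 between 0.8 and 0.9, then rose to 1211 at 0.9 and above. No read was converted in either library at 281 sites, of which 63 had at least 50 reads and 13 at least 100 in each library.

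**Figure D1:**
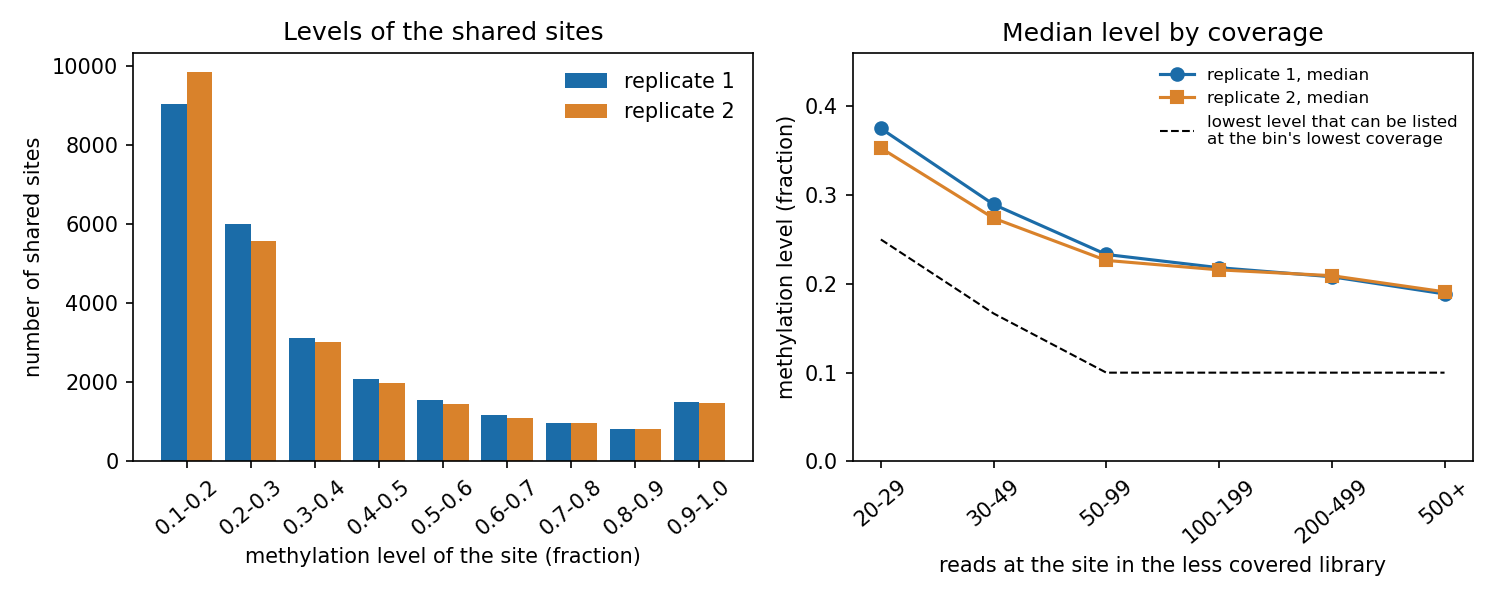
Left, number of shared sites (y axis) by methylation level (x axis, fraction of reads with A) in wild-type replicates 1 and 2. Right, median level in bins of the coverage of the less covered library, with the lowest level that a list can hold at the lowest coverage of each bin. Both libraries have their highest bar between 0.1 and 0.2 and a small second rise at 0.9 and above, and the medians fall with coverage.

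The level that could be listed depended on coverage. Every listed site had at least 15 reads, at least 5 unconverted reads and a level of at least 0.1, so a site with 20 reads could be listed only from 0.25. The median level was 0.375 at 20 to 29 reads and 0.236 at 50 to 99 reads. It was 0.190 at 500 reads or more. The share at 0.5 or more went from 33.6% to 18.4% and 15.6% over the same bins. Among the 945 sites just inside the minimum (20 or 21 reads in the less covered library) the median was 0.404, and among the 941 just outside it (18 or 19 reads) 0.435.

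At the shared sites both libraries gave similar but not equal levels. These sites had to be listed in both libraries, at 0.1 or more in each, so the agreement is in part set by that choice. In a two-sided Fisher's exact test per site, 4450 of 26264 sites (16.9%) had different levels after Benjamini-Hochberg adjustment. Replicate 2 was higher at 2073 of them and replicate 1 at 2377. The test compares 2 libraries and no conditions. Across sites, Pearson's r was 0.800 and Spearman's rho 0.723, as a description, since neighbouring sites share transcripts and reads. The median absolute difference went from 0.114 at 20 to 29 reads to 0.0240 at 500 reads or more, and r from 0.650 to 0.972.

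The share of sites listed again in the other library differed with level. Presence in both lists is what chose the shared sites, and each list ends at a level of 0.1, so a site just above that limit drops out with a slightly lower value in the other library. The shares are therefore a description. Among sites of replicate 1 with 100 reads or more and a level between 0.1 and 0.2, 17.7% were also in the list of replicate 2 (Wilson 95% interval 17.2% to 18.1%). Between 0.7 and 0.9 the share was 86.1% (83.2% to 88.6%). From replicate 2 to replicate 1 the shares were 15.3% (14.9% to 15.6%) and 77.4% (74.6% to 80.0%). In both directions the share was at least 76.0% in each class from 0.5 upwards. These intervals cover counting error only, and reads may include PCR copies.

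**Figure D2:**
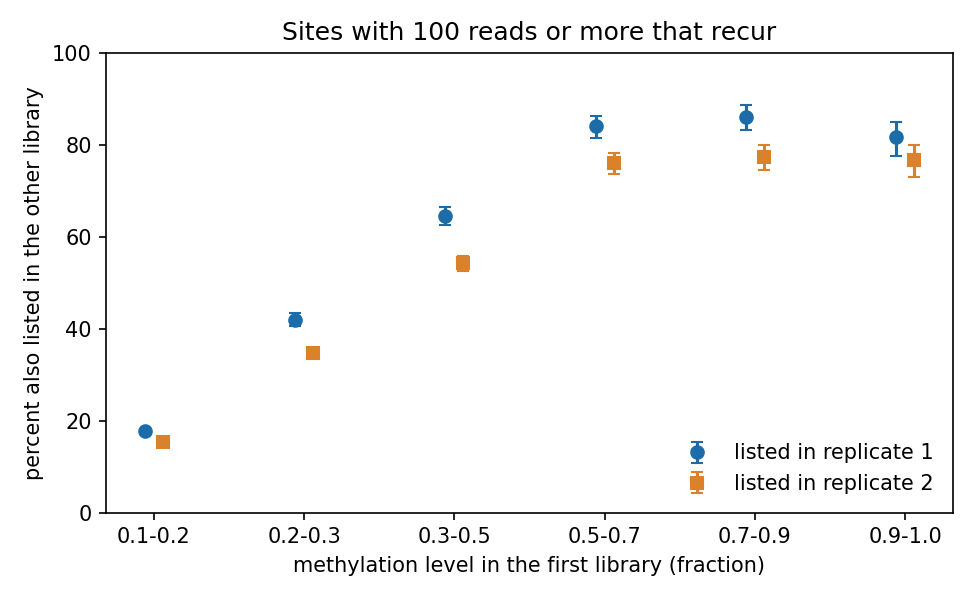
Percent of sites with 100 reads or more in a wild-type library that were also in the other wild-type list (y axis), by level in the first library (x axis, fraction of reads with A). Bars are Wilson 95% intervals. The share is under 20% between 0.1 and 0.2 and at least 76.0% in each class from 0.5 upwards in both directions.

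Of the shared sites, 22106 (84.2%) lay in exactly 1 feature of the same strand after coding genes were given precedence, 3965 in none and 193 in several. Protein-coding genes held 21047 sites in 6420 genes. Long noncoding RNA (lncRNA) sites lay in 95 genes, and pseudogenes, where reads of near-identical copies can be misassigned, held 455 sites. Median levels were 0.262 in coding genes, 0.277 in lncRNA, 0.189 in pseudogenes and 0.270 outside features. The unplaced sites were rarely just past a gene: 6.66% lay within 10000 bases after a coding gene's end. Coordinates are those of the lists. The submitters' processing notes name mm10, but 11 of 584 microRNA hairpins started where the GRCm38 table has them, so no build is given with the positions below.

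Per gene, sites were few in most genes and many in some. The 7034 genes with a placed site had a median of 2, and 31.6% had 1. Genes with 5 or more numbered 1538 and held 49.1% of placed sites, and 205 genes had 10 or more. Detection differed with the coverage of the gene. A shared site was found in 28.4% of coding genes with a mean gene coverage of 15 to 29 and in 88.2% of the 4022 genes with 50 or more, where the median was 3 sites. The share was 90.3% from 100 to under 200, 88.7% from 200 to under 500 and 84.3% at 500 or more. The median summed level was 0.927, 0.624 and 0.506 in these 3 classes. The summed level of a gene, the mean level added over its shared sites, had a median of 0.804. It was at least 1 in 40.8% of genes and at least 5 in 43.

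By summed level the leading genes were Ints5, Wdr6, Fgfr2, Ap1g1, Son, Srcap, Mfap3, Pde7a, Zbed6 and Nudcd3. Ints5, a subunit of the Integrator complex that processes small nuclear RNA, reached 10.3 in replicate 1 and 9.38 in replicate 2 over 16 sites (9.85 ± 0.661, SD, n = 2). Its gene spans 8870369 to 8875252 of the plus strand of chromosome 19. No shared Ints5 site lay between the first, 125 bases from the start, and the second, 1897 bases from it. The site at 8872788 had levels of 1 (65 reads) and 0.995 (194 reads). The site at 8872836, 48 bases further, had 0.304 and 0.293.

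Wdr6, a protein with WD repeats, had summed levels of 9.38 and 9.16 over 23 sites (chromosome 9, 108449510 to 108455938, minus strand). Its sites at 108452664 and 108452786 had 0.961 and 0.974 and 0.930 and 0.971, and the site between them, 108452722, had 0.621 and 0.841. Its 7 sites in the last 1000 bases were at 0.408 or less in mean level except 108450231, with 0.765 and 0.737. Son, a large nuclear speckle protein, had the highest count, 25 sites, with medians of 0.300 and 0.267. Ap1g1, a subunit of a clathrin adaptor, had 19 sites and summed levels of 9.40 and 8.31, and Srcap, a chromatin remodeller, 17 with 7.58 and 7.51. Mfap3 had a mean of 7.18 ± 0.251 (SD, n = 2) over 14 sites, Pde7a, a phosphodiesterase, 7.47 and 6.85 over 18, and Nudcd3 6.24 and 7.11 over 17. Neither library was higher throughout: replicate 1 gave the higher sum in 8 of these 10 genes and replicate 2 in Mfap3 and Nudcd3. Sites that differed between the libraries numbered 7 of 25 in Son and 7 of 19 in Ap1g1 and 2 of 23 in Wdr6, beside 16.9% of all shared sites.

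The order of these genes rests in part on thinly covered sites. With at least 50 reads in each library only Wdr6, Ap1g1 and Son stayed among the first 10, and Ints5 kept 7 sites with a summed level of 2.97. From the levels of replicate 1 alone 9 of the 10 were the same, and from those of replicate 2 all 10 were. The listed spans of Fgfr2, 28.4 times its length in the GRCm38 table, and Zbed6, 8.26 times, make their site counts uncertain. Of the 21 sites given to Fgfr2, a receptor for fibroblast growth factors, only 8 were within 100000 bases of its end.

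By count, Sox11 followed Son with 24 sites, then Wdr6 with 23, Fgfr2 and Eif4ebp2 with 21, Cpsf6 with 20, Ap1g1 and Zbed6 with 19, and Pde7a and Tmpo with 18, ahead of Sfrp1, also with 18, by summed level. Sox11, a transcription factor of neural progenitors, carried many weak sites: medians were 0.229 and 0.166, and 12 sites were under 0.2 in mean level. Its strongest site, 27385944 on the minus strand of chromosome 12, had 0.746 (394 reads) and 0.912 (559 reads), which differed between the libraries (Fisher's exact test, adjusted p = 1.18e-09). Sox11 sites differed between the libraries in 7 of 24 cases, beside 16.9% of all shared sites. Eif4ebp2, an inhibitor of cap-dependent translation, had medians of 0.218 and 0.238, and Cpsf6, a factor of 3′ end processing, 0.196 and 0.189.

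Other genes had few sites but high levels. Among genes with at least 5 sites, high median levels were those of Dab1, Mfsd5, Tmem168, Gpr153, Kctd5, Clspn and Fhip1b, from 0.956 down to 0.804. Mfsd5, a membrane transporter, had at least 80 reads at each site, a higher minimum than the others named here. Its 5 sites had levels of 1 and 0.997 (102188928), 1 and 1 (102189006), 0.687 and 0.709 (102189440), 0.451 and 0.406 (102189453), and 0.899 and 0.928 (102189617). The pair 13 bases apart thus differed by 0.236 and 0.303 within the libraries. No Mfsd5 site differed between the libraries, beside 16.9% of all shared sites. Dab1, an adaptor in Reelin signalling, had levels from 0.170 to 1 and from 0.167 to 1, and its sites were 2393 to 300871 bases before the end of a long gene. Tmem168 had no level under 0.5 in replicate 1 or under 0.651 in replicate 2, at 24 to 38 and 39 to 167 reads. With at least 50 reads in each library Tmem168 kept no site, Gpr153 and Fhip1b 1 each, and Dab1 and Clspn 2 each, so these medians rest on thinly covered sites, where only higher levels can be listed. Kctd5, an adaptor of a ubiquitin ligase, had 7 of 8 sites 655 to 1429 bases before its end, and 5 of 8 were at 0.5 or more.

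**Figure D3:**
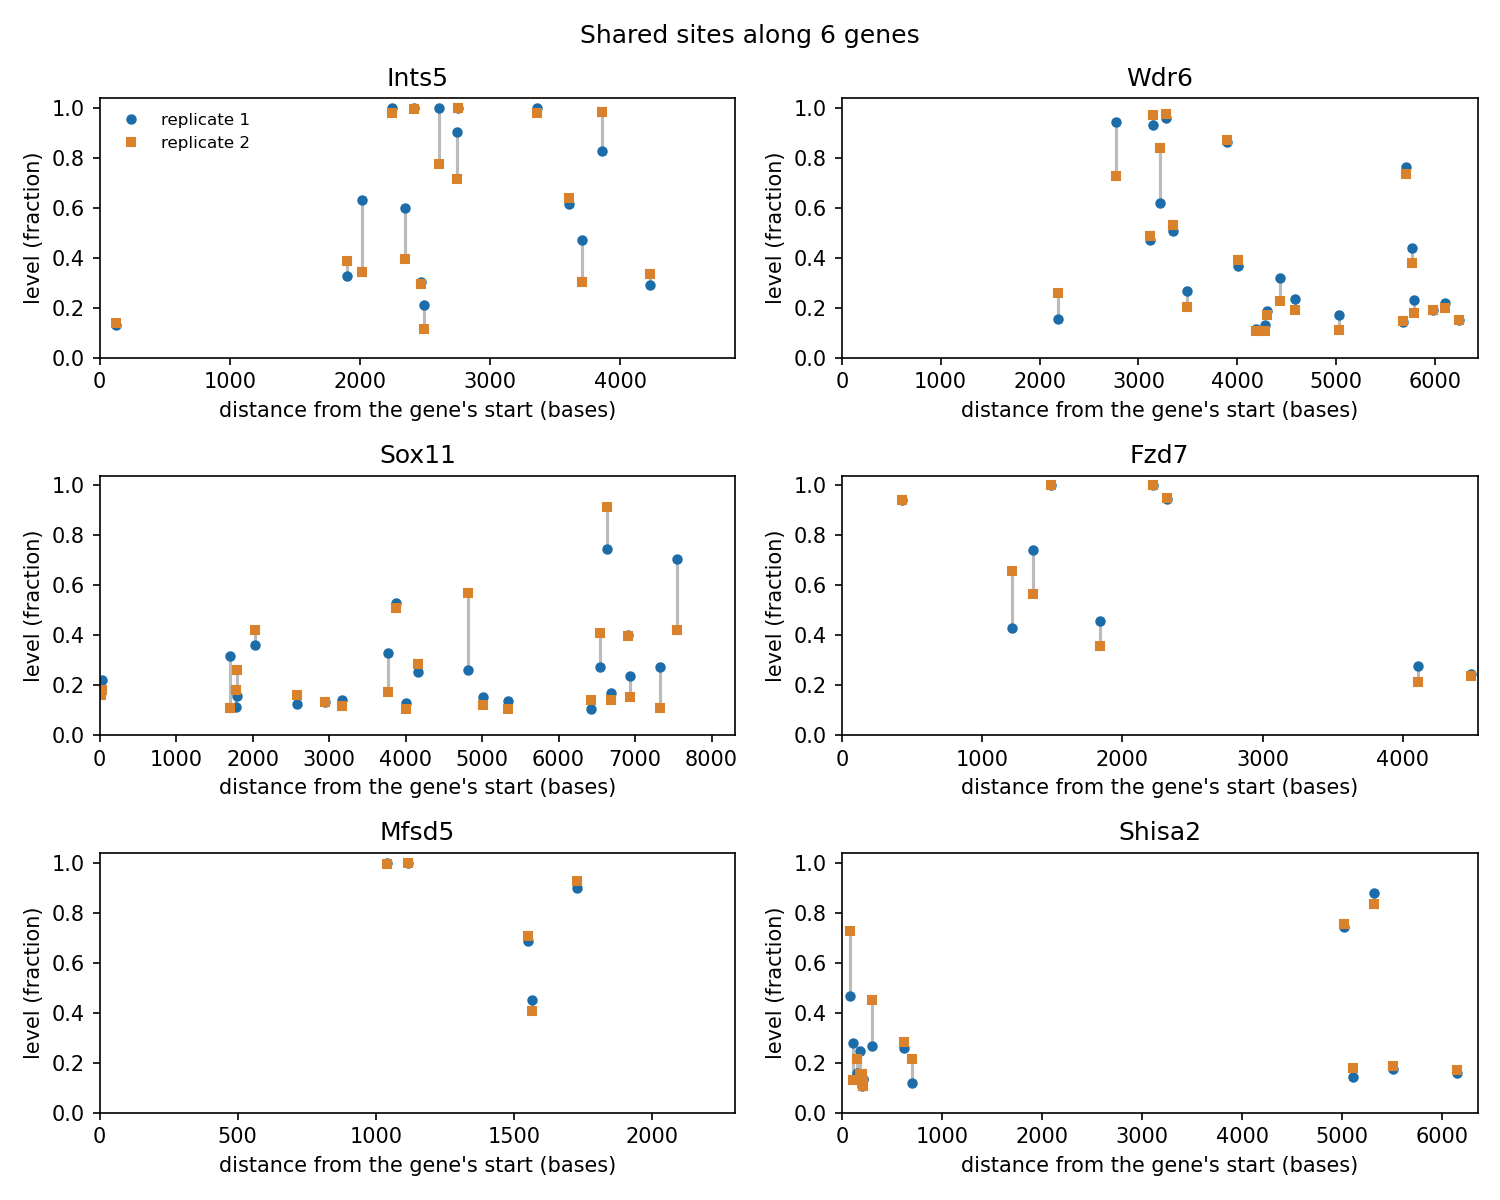
Level (y axis, fraction of reads with A) of each shared site in replicates 1 and 2 against the distance from the start of the gene as listed (x axis, bases) for Ints5, Wdr6, Sox11, Fzd7, Mfsd5 and Shisa2. Grey lines join both values of a site. Ints5, Wdr6, Fzd7 and Mfsd5 have neighbouring sites at high and low levels, and Sox11 has mostly low ones.

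Of the sites placed in features with a symbol and at least 100 reads in both libraries, 252 of 7501 had a mean level of 0.9 or more. The best covered with no converted read in either library was in Ube2r2, a ubiquitin-conjugating enzyme: 562 of 562 and 676 of 676 reads at 41190985 on the plus strand of chromosome 4. Another Ube2r2 site 480 bases further had levels of 0.387 and 0.462. Other such sites were in Atxn7l3b (224 and 383 reads), Poglut1 (201 and 165), Nat8l, Ip6k1, Nol12 and Dmwd, the last with 116 and 129 reads. Poglut1, an enzyme that glycosylates Notch, had 2 sites without a converted read, 619 and 1184 bases before its end. Nol12 had no other shared site.

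Many sites of a gene lay close together. No expected spacing of covered adenosines was available, so clustering was not tested. Over 15072 pairs of neighbouring sites within a gene, introns included, the median distance was 302 bases, with quartiles of 80 and 1742. Among them 29.3% were within 100 bases and 68.9% within 1000, where the median was 131. Neighbours 1 base apart were rare (34 pairs) and so were those 2 bases apart (33), against 73 to 106 pairs at each distance from 3 to 6. Adenosines 1, 2 or 3 bases apart cannot both be the centre of DRACH, and 73 pairs were 3 bases apart. Levels of neighbours were weakly related: r across pairs was 0.374 at 1 to 2 bases (67 pairs), 0.260 at 3 to 10 and 0.147 at 51 to 200, where the median difference was 0.179.

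The densest windows of 100 bases held 6 sites, in Shisa2 and Gnai2, and 5 in Cbln1. Gnai2, the alpha subunit of an inhibitory G protein, had its 6 sites within 49 bases, 353 to 401 bases before its end. Coverage there was 1987 to 2385 reads in replicate 1 and 2323 to 2806 in replicate 2. Levels were between 0.111 and 0.175 and between 0.104 and 0.242, so each was low at high coverage. In Shisa2, an inhibitor of Wnt and FGF receptor maturation, the 6 sites began 114 bases from the start, at mean levels of 0.122 to 0.204. Its highest levels, 0.879 and 0.836, were at 59868072 on chromosome 14, 1037 bases before the end. Cbln1, a secreted synaptic organiser, had levels between 0.116 and 0.481 and between 0.161 and 0.560 in its window.

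Along the listed span of the gene, introns included, shared sites were most frequent towards the 3′ end. Exon positions were not used, so the part of gene structure in these shares was not tested. The final 10% of the gene's length held 50.3% of the placed sites (Wilson 95% interval 49.7% to 51.0%), and the last 1000 bases 33.7% (33.1% to 34.4%). Sites of a single list lay there less often. Their share in the final 10% was 36.6% (36.4% to 36.9%) in replicate 1 and 34.4% (34.2% to 34.6%) in replicate 2, and 21.7% and 19.0% were within the last 1000 bases. Sites of a gene are not independent, so the intervals are too narrow and no test is given. The order held in each coverage class: at 100 reads or more these shares were 55.7% against 42.1% and 40.5%, and at 20 to 49 reads 45.2% against 33.6% and 30.9%. It also held in each of the 5 length classes, from 18.1% against 11.6% and 12.1% under 5000 bases to 64.0% against 49.4% and 45.7% from 100000 bases.

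**Figure D4:**
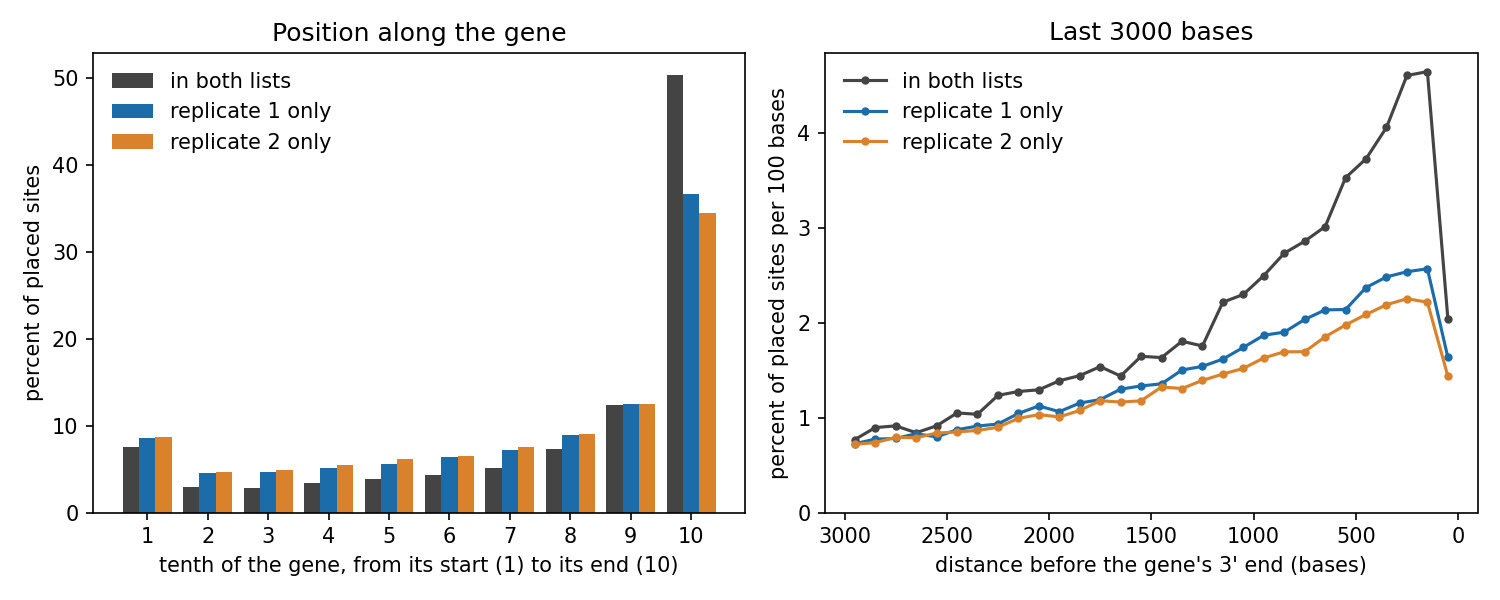
Left, percent of placed sites (y axis) in 10 equal parts of the gene, introns included, from start to end (x axis). Sites in both wild-type lists and in a single list are shown. Right, percent of placed sites per 100 bases (y axis) against the distance before the gene's 3′ end (x axis, bases). Shared sites reach 50.3% in the final 10% and are most frequent 100 to 300 bases before the end.

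The density of shared sites was highest 100 to 200 bases before the gene's end, with 4.65% of placed sites, and was 2.04% in the last 100 bases. Position varied with level. The share in the final 10% was 46.5% at mean levels of 0.1 to 0.2, 58.1% at 0.5 to 0.6 and 45.8% at 0.9 and above. Within 300 bases of the gene's start lay 5.58% of the sites at 0.1 to 0.2 and 1.11% of those at 0.8 to 0.9. For example, the Sox11 sites 20 and 32 bases from the start had levels of 0.180 and 0.160 and of 0.221 and 0.180. Transcript ends and coding regions were not used here, and a gene's listed end can lie beyond the end used in these cells.

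Intron content could not be read from the files. The deposited intron mark stood at 45.7% of shared sites and at 45.0% and 44.9% of those of a single list. In 12 genes known to have no intron, 72 of 94 shared sites carried it. Among these, all 24 sites of Sox11 and 13 of Sox4 were marked and none of the 9 of Fzd7 was.

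The labelled tissue was checked against marker genes. Of 7 eye field markers, 4 had shared sites (26 in all), and of 7 neural progenitor markers 5 had (26). Among all protein-coding features in the lists 52.4% had one, so the eye field share of 57.1% was close to this background. Pluripotency markers had 3 sites in 2 of 6 genes, and neuron markers 11 in 2 of 6. None of the 24 markers of mesoderm, endoderm, neural crest and posterior neural tissue had any. Of these markers only 4 of mesoderm, 2 of endoderm, 2 of neural crest and 1 of posterior neural tissue were named in the lists. The background share counts listed genes only. A marker without a shared site can be unmethylated, unexpressed or thinly covered: Hesx1 had no shared site at mean gene coverages of 264 and 311, and Nanog none at 109 and 148. A shared site shows that the RNA was read in both libraries, and the lack of a site does not show that it was absent.

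Rax, the gene of the reporter, had 6 sites. The highest was 834 bases from the start, with levels of 0.590 (293 reads) and 0.495 (378 reads). The next, 4599 bases from the start, had 0.494 and 0.391, and the other 4 lay between 0.194 and 0.378 in both libraries. Of these 6 sites the second alone differed between the libraries (Fisher's exact test, adjusted p = 0.0160), beside 16.9% of all shared sites. The listed span of Rax is 2.59 times its length in the GRCm38 table, and each site was at least 6776 bases before the listed end.

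Other eye field genes had a single strong site among weaker ones. Pax6, required for eye formation, had 0.864 and 0.856 at 105527131 on chromosome 2, and 0.138 and 0.173 at the site 59 bases before it. Lhx2, a regulator of optic vesicle growth, had 0.896 and 0.922 at 38259446 and at most 0.507 at its 8 other sites. Six3, a repressor of Wnt signals in the forebrain, had 9 sites with none above 0.547. Neither Pax6, Lhx2 nor Six3 had a site that differed between the libraries, beside 16.9% of all shared sites.

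Sox3, a transcription factor of neural progenitors, had 0.972 (1287 reads) and 0.960 (1763 reads) at 59935308 on chromosome X and 0.981 and 1 at 59935496. Sox2, of the same family, stayed low. Its 5 sites were between 0.106 and 0.384, and at 34705812 on chromosome 3 the levels of 0.384 and 0.144 differed (Fisher's exact test, adjusted p = 7.97e-12). Sox1 had 0.808 and 0.822 at 12446146 on chromosome 8, but 0.580 and 0.136 at 12446365, 219 bases further. Zic2, a forebrain patterning factor, had 1 and 0.970 at 122713291 on chromosome 14 and 0.150 and 0.115 only 98 bases further.

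Gene lists differed in median level and in the share of high levels, which over all coding genes were 0.262 and 21.3% at 0.5 or more. Immediate early and short-lived regulators had 77 sites in 21 of 25 genes, a median of 0.370 and 31.2% at 0.5 or more. Among them Klf6 had 9 sites with medians of 0.531 and 0.395, Klf10 8, Atf4 7 and Btg2 5. A Btg2 site 2119 bases before the end had 1 and 0.925. With at least 50 reads in each library Klf6 kept 4 sites, with a summed level of 1.49. Btg2 then kept 2, without the site at 1 and 0.925, and Klf10 and Atf4 kept all of theirs. Klf6 and Klf10 are zinc finger factors, Atf4 acts in the stress response and Btg2 restrains proliferation. Wnt and Notch genes had 125 sites in 26 of 30 genes, a median of 0.293 and 24.0% at 0.5 or more. Fzd5 had 14 sites, Fzd3 13, Tcf7l2 11 and Fzd7 9. Fzd7, a Wnt receptor, had no converted read at 2 sites, and 0.940 and 0.942 at 59522015 on chromosome 1. None of its 9 sites differed between the libraries, beside 16.9% of all shared sites. Fzd5, a Wnt receptor of the eye field, stayed at or below 0.647 at each of its sites.

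Chromatin modifiers had 161 sites in 34 of 36 genes, a median of 0.285 and 22.4% at 0.5 or more, led by Kdm2a, Nsd1 and Kdm5b with 10 each, then by Ep300 among those with 8. Writers, readers and erasers of m6A had 82 sites in 15 of 21 genes, a median of 0.223 and 22.0%. Ythdf3, a reader, had 12 sites, Igf2bp1 10, the eraser Alkbh5 8 and the reader Ythdf1 7. Ythdf1 had 0.859 (71 reads) and 0.949 (138 reads) at 180553863 on chromosome 2 and 1 (27 reads) and 0.930 (57 reads) at 180552801, and Alkbh5 0.971 and 1 at 60445261 on chromosome 11. Mettl3 had no shared site, at mean gene coverages of 50.6 and 45.9. Eye field and anterior neural genes had 128 sites in 17 of 24 genes, a median of 0.260 and 19.5%. After Sox11 they were led by Sfrp1 with 18 sites, Sox4 with 13 and Sox1 with 9.

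Lower levels were found in the remaining lists. Median gene coverage, taken in the less covered library of each gene, was 46.9 over all coding genes. It was 51.0 in the pluripotency list, 386 among histones and RNA-binding proteins and 751 among reference genes. Levels fell with coverage in the whole set, and the part of coverage in these lists was not tested. Pluripotency and early epiblast genes had 36 sites in 10 of 18 genes, a median of 0.212 and 11.1% at 0.5 or more, with Sall4 at 13 sites, Lin28a at 5, Klf5 at 4 and Klf2 at 3. Klf2 stood apart with medians of 0.681 and 0.652, but with at least 50 reads in each library it kept 1 site, at a mean level of 0.373. Core histone genes and RNA-binding proteins had 122 sites in 22 of 26, a median of 0.213 and 9.02%. After Son came Ddx17 with 17 sites, Ddx5 with 9 and Srsf2 with 7. Ddx5 and Ddx17 are RNA helicases, and none of their sites reached 0.5 in mean level. Reference genes had 26 sites in 7 of 10, a median of 0.221 and 11.5%. The elongation factor Eef2 had 0.902 (1464 reads) and 0.907 (1928 reads) at a site 238 bases before its end, and 2 further sites between 0.103 and 0.138. Tbp and Tubb5 had 7 sites each, and the cytoskeletal Actb 3 sites at 0.315 or less.

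Cytosolic ribosomal protein genes had the lowest levels of the 9 lists. They had 49 sites in 23 of 42 genes, a median of 0.167 and 4.08% at 0.5 or more. Coverage there was high: of the 20 with a gene coverage, all were at 50 or more and 14 had a shared site, against 88.2% of all coding genes with such coverage. Rpl15 had 5 sites with medians of 0.140 and 0.129, and Rpsa, Rplp0 and Rpl11 were among those with 3. Levels fell with coverage in the whole set as well, and the part of coverage in this difference was not tested. Many pseudogene copies of these genes exist, so their reads can be assigned to a wrong copy. Sites that differed between the libraries made up 5 of 49 in this list, beside 16.9% of all shared sites. They were 9 of 36 in the pluripotency list, 29 of 125 in the Wnt and Notch list, 26 of 128 in the eye field list and 23 of 122 among histones and RNA-binding proteins. They were 14 of 77 in the immediate early list, 29 of 161 among chromatin modifiers, 14 of 82 in the m6A list and 3 of 26 among reference genes.

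**Figure D5:**
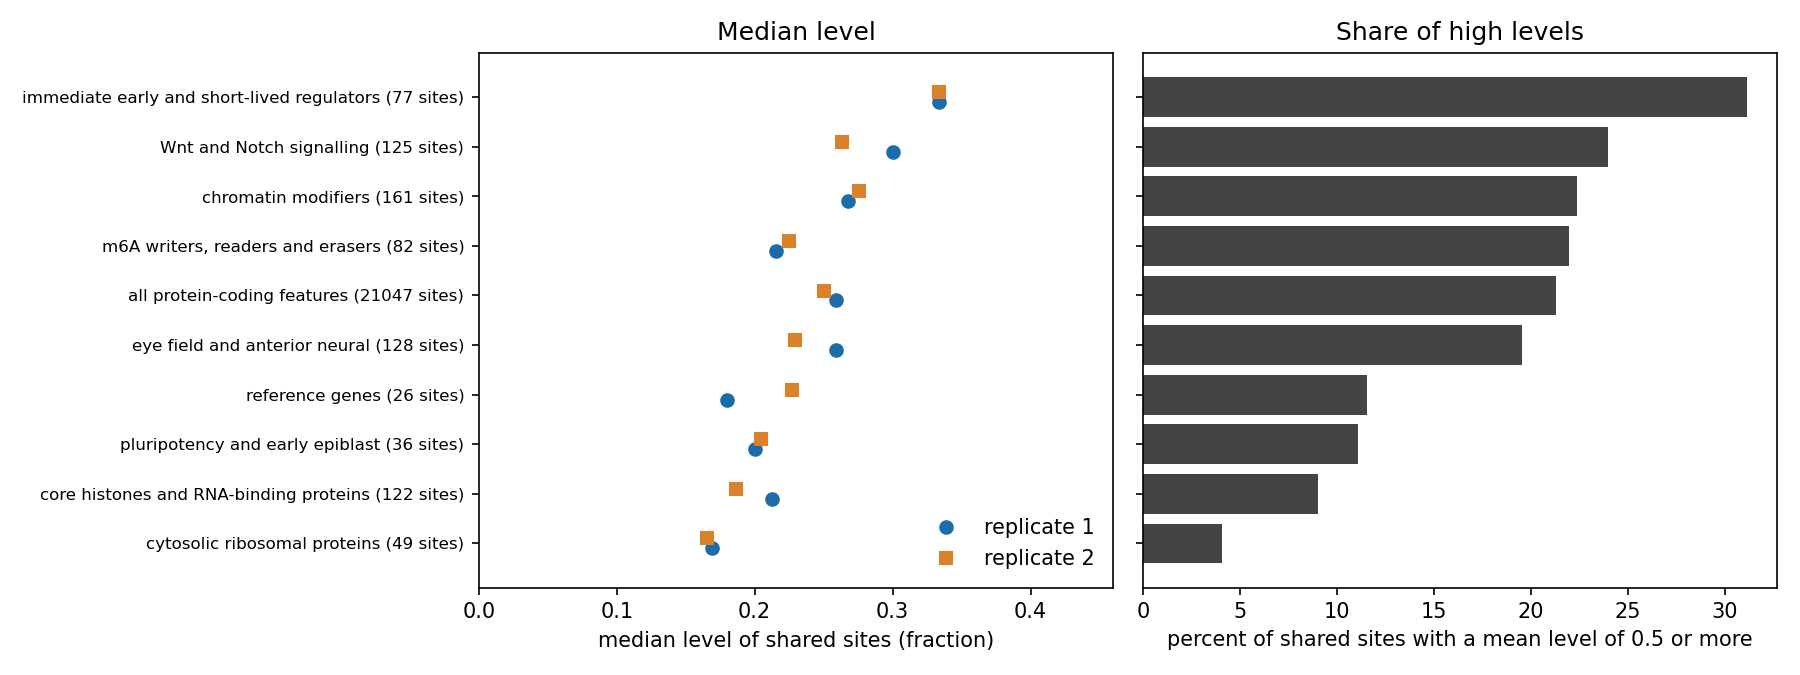
Left, median level of the shared sites of each gene list in replicates 1 and 2 (x axis, fraction of reads with A). Right, percent of the list's shared sites with a mean level of 0.5 or more. The lists run from 31.2% in immediate early and short-lived regulators to 4.08% in cytosolic ribosomal proteins, and all coding genes are at 21.3%.

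Noncoding RNA showed contrasting levels. Genes in this paragraph were chosen after their values were seen. Tug1, a lncRNA needed for retinal photoreceptor development, had 11 sites with medians of 0.594 and 0.526 and a summed level of 6.49 and 6.16. Its sites had 26 to 85 reads in replicate 1, and 2 of them differed between the libraries, in opposite directions: 0.882 and 0.308 at 3589911 on chromosome 11, and 0.262 and 0.861 at 3590450. Malat1, an abundant nuclear lncRNA, had 8 sites between 0.100 and 0.250. Meg3, an imprinted lncRNA, also had 8, with medians of 0.219 and 0.191. Six3os1, on the strand opposite Six3, whose listed span it overlaps, had 8 sites with medians of 0.524 and 0.213, and 4 of them differed between the libraries. Over all shared sites this share was 16.9%.

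Small nuclear RNA held 3 shared sites, each at base 30 of a feature of 191 bases. Gm25360 on chromosome 1 had 217 of 218 and 159 of 159 reads unconverted. Gm23971 on chromosome 11 had 905 of 922 and 437 of 448, and Gm22973 on chromosome 12 had 327 of 327 and 94 of 94. The lists name these features by number only, and 10 of 329 listed small nuclear RNA features have that length. As background, the U2 spliceosomal RNA carries an N6-methylated adenosine at base 30. Whether these features are U2 copies was not tested, and reads of near-identical copies cannot be assigned with certainty. The mitochondrial chromosome held 6 shared sites, with mean levels between 0.115 and 0.148 at 50 to 5301 reads.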

How the data were processed

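Both wild-type libraries were made by GLORI from poly(A) RNA, per the labels' protocols, and the authors deposited 1 list of called sites for each, with no pooling. Per the file headers, each site has deposited counts of reads with A or G and of reads with A, and a deposited fraction, the level, which equalled their ratio to within 0.000005. The lists also hold the authors' p-value per site, with a test that is not given in the sources used here, and the authors' coverage signal of the gene. The submitters' processing notes name mm10, and aligner and caller are not given in the sources used here. Listed sites per library were 227298 and 288516, with median coverages of 39 and 41 reads. At the shared sites median coverage was 71 and 89 reads.

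Sites were joined by chromosome, position and strand, and 43 and 53 repeated entries were dropped. Each was placed in the single same-strand coding feature around it, or otherwise in the single feature of another kind. Coordinates matched the listed spans: 82.3% of shared sites lay within listed spans of coding genes, and 40.5% within the GRCm38 spans of the same genes. Symbols came from the lists, or from the GRCm38 table where the lists gave none. Biotypes came from that table, which matched 19575 of 26333 listed features. Levels per library were compared with Fisher's exact test (scipy 1.17.1, Python 3.11.15) and Benjamini-Hochberg adjustment at 0.05, after the test had been checked on simulated counts. At sites with at least 50 reads the test called 50 of 100 simulated level steps of 0.2, so uncalled sites can still differ. Intervals are Wilson 95% intervals and cover counting error only.

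Members and gene lists were chosen with earlier results of these data known. Named genes were the 10 highest by summed level, the 10 highest by count and the 8 highest medians with at least 5 sites. To these were added the genes of the 8 highest sites with at least 100 reads, the 3 densest windows of 100 bases, the 4 with most sites in each list (ties by summed level), Mettl3 and Rax. Marker genes are named beside their list. Some genes that met this rule are not reported here. Alternatives covered the coverage minimum, the deposited adjusted p, single libraries, the placement and the way of averaging.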

Additional observations from a re-analysis of the deposited data

How the results depend on the processing

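Counts of sites and genes followed the coverage minimum, as fewer sites qualified. The shared sites numbered 16024 at 50 reads and 8786 at 100 reads, where 3377 genes had a shared site. The median level was 0.280 with a minimum of 15 reads, 0.221 with 50, 0.210 with 100 and 0.290 with a deposited adjusted p of at most 0.001. The share at 0.5 or more was 23.8%, 17.7%, 17.2% and 24.8% in the same order. The median spacing was 315, 224, 160 and 276 bases, and 131 bases for pairs within 1000 bases, an alternative chosen after seeing the data. The share within 1000 bases of the 3′ end was 32.8%, 38.3%, 43.8% and 34.9%. The intron mark stood at 46.3% of sites at 100 reads. At a threshold of 0.01, 2948 sites differed between the libraries. Of the first 10 genes by summed level 3 remained at 50 reads.

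Without replicate 1 or replicate 2, each list alone gave 193237 to 249223 sites in 11686 to 12197 genes. Median levels were then 0.216 to 0.217, the share at 0.5 or more 12.4% to 13.4%, and the median sites per gene 10 to 11. Spacing was 80 to 86 bases, the share within 1000 bases of the end 20.6% to 23.3% and the intron mark 45.0% to 45.1%. Leaving out a library's levels kept 9 to 10 of the first 10 genes. The other 39 alternative values, among them those for the placement, the features of all 4 lists, summed counts and long spans left out (chosen after seeing the data), stayed within the spread between libraries, the 95% interval or 1.5 times the count. No paired analysis was possible because both libraries belong to a single group and no groups were compared. Depth limits the lowest levels: below 50 reads a level of 0.1 could not be listed.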
